A study of Mus musculus with 36 samples.

Results

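The chromatin of 6 genes that encode transcription factors of the naive T cell state was followed across 12 groups of mouse CD4 T cells with ATAC-seq, an assay that reads where a transposase could reach the DNA. The genes were Tcf7, Lef1, Satb1, Klf2, Foxo1 and Foxp1. Of the 71509 consensus peaks of the series, 331 (0.463%) were taken, namely every peak whose midpoint lay nearest to a protein-coding transcription start site (TSS) of 1 of these genes or that overlapped the body of 1 of them, in the mouse GENCODE annotation on GRCm39. The rule used positions alone and no read count. Foxp1 had 96 peaks, Satb1 82, Foxo1 67, Lef1 52, Tcf7 23 and Klf2 11, while a protein-coding gene had a median of 3. All 331 passed the filter on low counts in each fit.

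Naive T cells circulate between blood and lymphoid tissue in a quiescent state that several factors hold together. TCF-1, encoded by Tcf7, and LEF1 are related HMG-box factors that bind the same DNA letters, act in T cell development and are kept high in naive and memory cells. SATB1 organises chromatin loops in T cells, and KLF2 drives genes of quiescence and of exit from lymphoid tissue. The forkhead factor FOXO1 sustains genes of homing and survival, Klf2 among them, and FOXP1, another forkhead factor, keeps naive cells quiescent. Effector differentiation is known to lower most of them.

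The 36 libraries formed 12 groups of 3, from 2 mouse lines, 2 genotypes and 3 conditions. In the HP1α line the floxed gene had been excised in all tissues with CMV-cre, so that the HP1α KO was constitutive, and its wild-type (WT) controls were littermates. In the HP1γ line the floxed gene was deleted with Cd4-cre, which acts in T cells from the thymus on, and the controls were floxed littermates without cre. Both lines were on a mixed 129/Sv and C57BL/6 background, and the male, sex-matched donors were 6 to 12 weeks old. Naive cells were splenic CD4 T cells enriched by negative selection before any transfer. Tconv were the Vβ6+ progeny of such cells, sorted from the spleen 3 weeks after lethally irradiated B6 mice had received them with a mix of B6 and B6D2F1 marrow, and TconvTreg were the same cells from hosts that had also received expanded regulatory T cells (Treg). Every host was irradiated and grafted, so all transferred groups share an alloreactive environment, and only cells of 1 Vβ family were sorted from them. Nothing in the labels says whether libraries with the same number share an animal or a day.

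Reads counted in peaks ran from 1.49 M to 96.8 M per library. The study left out 3 libraries of the HP1α line for low quality, which by their labels are HP1α WT TconvTreg 3 and HP1α KO TconvTreg 2 and 3, so that the HP1α line had 2 WT libraries against 1 KO library with Treg. They stood apart here as well: the 331 peaks took 0.427 to 0.463% of their reads, against 0.249 to 0.382% in the kept transferred libraries and 0.569 to 0.634% in naive libraries. The shallowest kept library, HP1α WT TconvTreg 2, held 0 reads at 52 of the 331 peaks. Cd3e, a T cell marker, had 127 to 133 CPM (read counts scaled to a common total of reads in peaks, with TMM factors over all 36 libraries) in HP1γ WT naive libraries, and Cd8a, of CD8 T cells, had 6.13 to 7.21. The peak nearest to the TSS of Cbx5, the gene of HP1α, had log2 fold changes of 0.01, 0.10 and 0.12 between KO and WT in the 3 conditions, and that of Cbx3, the gene of HP1γ, had 0.02, 0.02 and 0.11, so these peaks did not check the genotype labels. A peak in a bulk library gives an average over cells, in which fewer accessible cells and less access per cell cannot be told apart.

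The sequences below belong to peaks that turned in opposite directions on activation, that is in Tconv against naive cells. The first 6 are 200 bases at the middle of the peak of each gene with the smallest p among those that opened in HP1γ WT cells, and the last 3 are from peaks of Tcf7, Satb1 and Foxp1 with the smallest p among those that closed, all outside promoters and exons. All are from GRCm39, on the plus strand, with capitals for the letters of any motif searched.
Tcf7 opened, chr11:52185220-52185419: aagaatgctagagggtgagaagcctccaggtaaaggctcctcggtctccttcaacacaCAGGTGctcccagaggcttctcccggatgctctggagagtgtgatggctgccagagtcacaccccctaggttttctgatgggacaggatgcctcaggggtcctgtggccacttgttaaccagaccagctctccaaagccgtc
Lef1 opened, chr3:130805950-130806149: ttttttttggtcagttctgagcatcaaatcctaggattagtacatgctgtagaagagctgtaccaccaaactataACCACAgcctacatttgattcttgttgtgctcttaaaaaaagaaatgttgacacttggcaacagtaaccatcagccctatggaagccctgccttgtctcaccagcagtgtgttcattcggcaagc
Satb1 opened, chr17:52463570-52463769: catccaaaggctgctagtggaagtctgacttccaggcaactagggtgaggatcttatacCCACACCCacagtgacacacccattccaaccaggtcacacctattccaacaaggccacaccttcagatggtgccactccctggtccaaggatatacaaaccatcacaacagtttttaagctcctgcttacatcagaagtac
Klf2 opened, chr8:73124025-73124224: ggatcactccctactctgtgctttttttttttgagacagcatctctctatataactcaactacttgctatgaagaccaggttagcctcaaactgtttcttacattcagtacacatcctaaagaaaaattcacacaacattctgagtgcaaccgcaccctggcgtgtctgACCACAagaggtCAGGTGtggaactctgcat
Foxo1 opened, chr3:52406325-52406524: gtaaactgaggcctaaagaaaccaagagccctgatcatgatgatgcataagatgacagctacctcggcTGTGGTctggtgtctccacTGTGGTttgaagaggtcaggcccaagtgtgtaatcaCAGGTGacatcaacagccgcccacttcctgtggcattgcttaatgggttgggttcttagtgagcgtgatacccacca
Foxp1 opened, chr6:99044575-99044774: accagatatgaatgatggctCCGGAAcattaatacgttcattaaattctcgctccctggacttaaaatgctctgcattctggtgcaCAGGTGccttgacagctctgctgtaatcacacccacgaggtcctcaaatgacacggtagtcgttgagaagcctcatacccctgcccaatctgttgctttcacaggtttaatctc
Tcf7 closed, chr11:52201035-52201234: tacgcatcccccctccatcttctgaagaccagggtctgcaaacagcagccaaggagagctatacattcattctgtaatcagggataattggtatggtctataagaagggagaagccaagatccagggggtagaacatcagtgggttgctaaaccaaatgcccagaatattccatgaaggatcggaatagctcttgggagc
Satb1 closed, chr17:52485535-52485734: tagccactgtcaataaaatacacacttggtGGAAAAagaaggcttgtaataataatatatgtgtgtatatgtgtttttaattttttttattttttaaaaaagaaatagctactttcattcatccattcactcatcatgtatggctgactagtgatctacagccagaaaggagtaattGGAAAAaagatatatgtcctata
Foxp1 closed, chr6:99149070-99149269: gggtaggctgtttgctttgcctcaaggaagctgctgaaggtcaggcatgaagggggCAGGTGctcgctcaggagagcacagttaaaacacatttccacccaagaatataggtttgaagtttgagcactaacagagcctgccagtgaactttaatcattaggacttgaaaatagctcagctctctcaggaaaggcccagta
The E-box letters CAGGTG stood in the opened windows of Tcf7, Klf2, Foxo1 and Foxp1 and in the closed window of Foxp1. Of the other opened windows, that of Lef1 held the RUNX letters TGTGGT and that of Satb1 the KLF/SP motif, on either strand. Among closed windows not printed, that of Lef1 also held the E-box letters, and those of Klf2 and Foxo1 did not.

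Over all member peaks, 8 motifs were searched on both strands in the 300 bases around each midpoint. The RUNX letters stood in 29.9% of the 331 peaks and 30.0% of all peaks, the NFAT letters GGAAAA in 25.1% and 22.4%, and the FOXO letters GTAAACA in 3.32% and 4.34%. The ETS letters CCGGAA were in 5.44% of the 331 peaks and 8.33% of all peaks. The TCF/LEF letters CTTTGA were in 27.1% of the 247 peaks that closed in HP1γ WT cells, in 0 of the 9 that opened and in 21.9% of all peaks. The E-box letters were in 7 of the 9 that opened (77.8%), in 19.8% of those that closed and in 22.9% of all peaks. The AP-1 letters TGANTCA, bound by factors of T cell activation, stood in 8.91% of those that closed and 13% of all peaks, and the ETS letters in 4.05% of those that closed. RUNX and KLF/SP letters can overlap and were counted apart. These matches are a description of the letters, and binding was not measured.

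Summed over all its peaks, each gene was most accessible in naive cells, and the level changed least at Klf2 and Tcf7 and most at Foxp1 in HP1γ WT cells. The Foxp1 sums were 10.66, 10.67 and 10.68 log2 CPM in HP1γ WT naive libraries and 9, 8.70 and 8.50 in HP1γ WT Tconv, without overlap. Satb1 went from 10.42, 10.41 and 10.41 to 9.31, 9.33 and 9.07, and Lef1 from 10.53, 10.54 and 10.60 to 9.67, 9.55 and 9.46, again without overlap. Foxo1 went from a mean of 9.85 ± 0.01 (SD, n = 3) to 9.16 ± 0.18, Tcf7 from 9.49 ± 0.04 to 9.28 ± 0.12, and Klf2 from 8.89 ± 0.03 to 8.68 ± 0.03. For Tcf7 and Klf2 the libraries of the 2 conditions did not overlap either, with Tcf7 at 9.46 to 9.54 against 9.15 to 9.39. With 3 libraries against 3 an exact permutation test cannot go below p = 0.1, so these sums carry no test.

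Per kilobase of peak, the order of the genes changed with activation. In HP1γ WT naive cells Klf2 stood at 17.2 ± 0.365 CPM per kb (SD, n = 3), Tcf7 at 14.9 ± 0.422, Foxp1 at 14.5 ± 0.138, Lef1 at 14.0 ± 0.388, Foxo1 at 13.2 ± 0.133 and Satb1 at 11 ± 0.0455. Tcf7 and Foxp1, and Foxp1 and Lef1, lay within their SDs of each other. In HP1γ WT Tconv, Klf2 still led with 14.9 ± 0.287, followed by Tcf7 with 12.9 ± 1.09, Foxo1 with 8.20 ± 1.06 and Lef1 with 7.05 ± 0.52. Satb1 came next with 4.90 ± 0.471, and Foxp1, which had stood above Lef1 in naive cells, was last with 3.84 ± 0.68. Foxo1 and Lef1, and Satb1 and Foxp1, did not differ beyond their SDs.

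Across the 12 group means the sums of Lef1 and Foxo1 ran most closely together (Pearson r = 0.99), then Lef1 and Satb1 (0.98), and Klf2 and Foxp1 least (0.66). All points share the step from naive to transferred cells. Among 7982 coding genes with at least 3 peaks, the sums most like those of Foxp1 were at Smad4 (r = 0.998 over 12 group means), Ifnk (0.996) and Klhl2 (0.995). The closest to Tcf7 was Pex5 (0.991), to Lef1 Mfhas1 (0.993), to Satb1 Gm5893 (0.995), to Klf2 Asap3 (0.987) and to Foxo1 Mfhas1 (0.995).

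**Figure D1:**
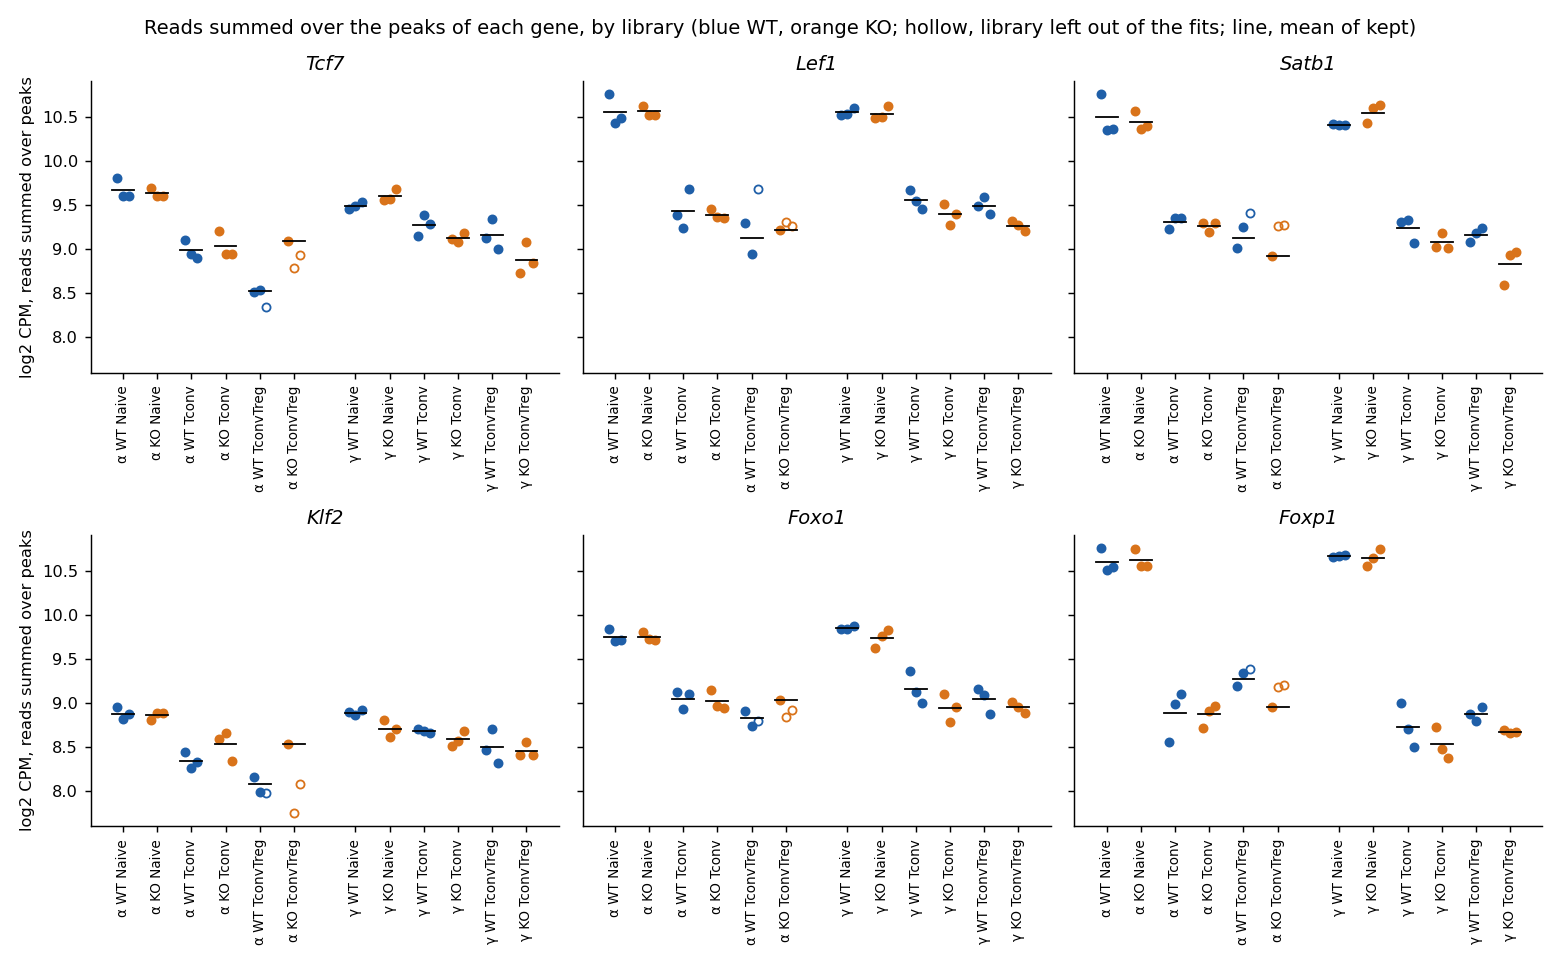
Reads summed over all peaks of each gene, as log2 CPM on the vertical axis, for each library of the 12 groups on the horizontal axis (α and γ stand for the HP1α and HP1γ lines). Points are libraries, blue for WT and orange for KO, hollow points are the 3 left out of the fits, and lines are means of the kept libraries. Each gene is highest in naive cells, with Foxp1 at 10.66 to 10.68 in HP1γ WT naive libraries against 8.50 to 9 in Tconv.

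The first comparison asked how these loci change when naive cells become Tconv. In HP1γ WT cells 247 of the 331 peaks closed and 9 opened, called at an adjusted p under 0.05 (edgeR) and an absolute log2 fold change over 1, where 22% of all peaks closed and 24.5% opened. The median log2 fold change over the 331 peaks was -1.74, and over all peaks it was 0.08. In HP1α WT cells 213 closed and 7 opened, against 17.5% and 24.9% of all peaks, with medians of -1.37 and -0.03. That count depended on the library HP1α WT Tconv 1, without which 125 peaks were called in all instead of 220. KO cells gave like counts, with 240 closed and 7 opened for HP1α (19% and 23.5% of all peaks) and 240 closed and 9 opened for HP1γ (20.6% and 22.4%).

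Markers of other cell types moved with this comparison, in which naive cells had been enriched by negative selection and Tconv sorted. In HP1γ WT cells the CD8 genes, Cd8a and Cd8b1, closed at 7 of 7 peaks (median -2.61) and summed to 42.5 to 48.2 CPM in naive cells and 4.43 to 6.87 in Tconv. The Treg list, Foxp3 and Ikzf2, opened at 17 of 31 peaks and closed at 7 (median 1.51), with sums of 89.7 to 104 and 97.8 to 155, while Foxp3 alone went from 5.64 to 6.12 down to 2.54 to 3.44. NK genes opened at 17 of 43 peaks and closed at 6 (0.77), with 485 to 493 and 500 to 551. B cell genes opened at 6 of 22 and closed at 5, myeloid genes at 7 and 4 of 18 and erythroid genes at 1 and 1 of 2. The part of these markers in the result at the 6 genes was not tested.

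In all, 188 peaks closed in each of the 4 comparisons of Tconv and naive cells, 6 opened in each, 50 were called in none and 0 turned in opposite directions. The log2 fold change was below 0 in all 4 for 291 of the 331. The interaction of genotype and activation was called at 0 of the 331 peaks in either line by edgeR. Of all peaks 0% were called for HP1α and 0.014% for HP1γ (0.00699% in either direction). Unadjusted p-values under 0.05 numbered 6 for HP1α (1.81%, against 1.8% of all peaks) and 31 for HP1γ (9.37%, against 9.51%), so the members did not stand out. DESeq2 called 0 for HP1α and 1 for HP1γ, lower, where it called 1.57% of all peaks lower.

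**Figure D2:**
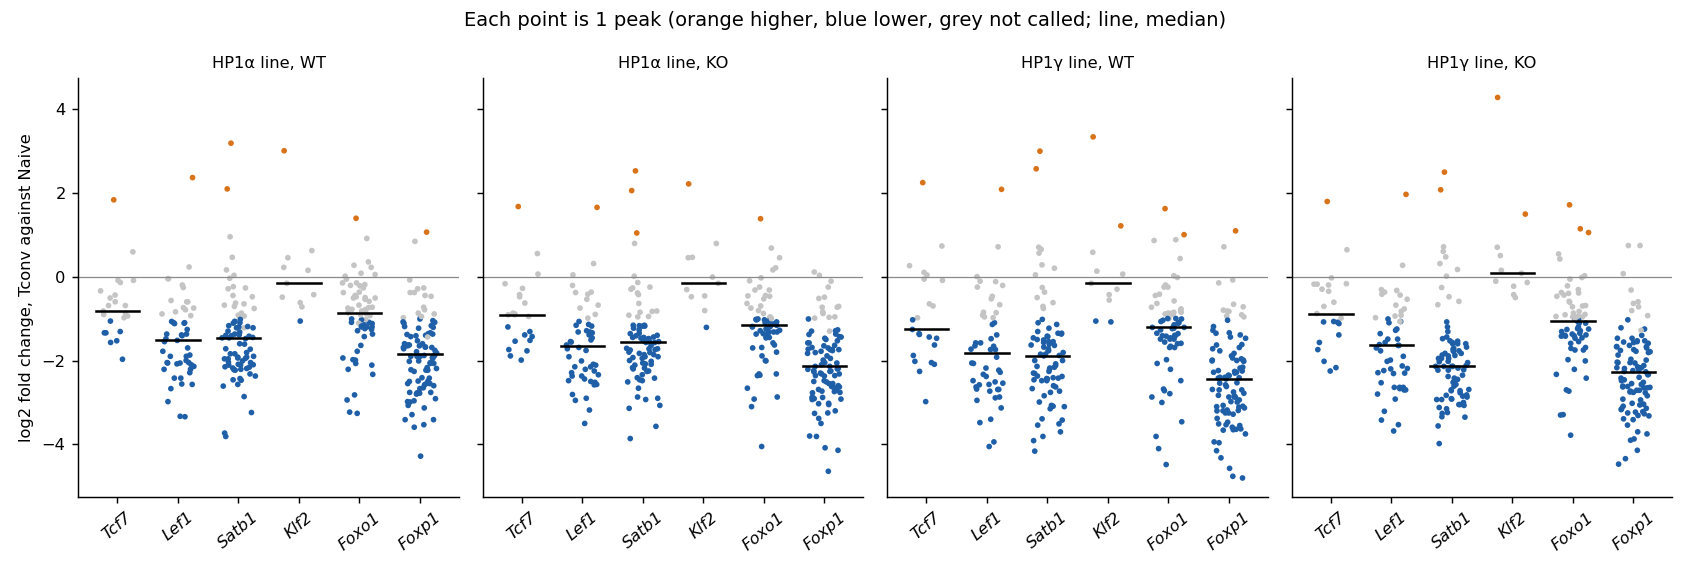
Log2 fold change of Tconv against naive cells on the vertical axis for each of the 331 peaks, by gene on the horizontal axis, in the WT and KO cells of both lines. Orange peaks were called higher, blue ones lower and grey ones not called, and lines are medians. In HP1γ WT cells the medians run from -2.43 at Foxp1 to -0.16 at Klf2.

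The genes differed in how much of the locus closed. In HP1γ WT cells 84 of 96 Foxp1 peaks closed and 1 opened, with a median log2 fold change of -2.43. Satb1 closed at 68 of 82 peaks (median -1.88), Lef1 at 37 of 52 (-1.83), Foxo1 at 43 of 67 (-1.21) and Tcf7 at 13 of 23 (-1.26). At Klf2 2 of 11 closed and 2 opened (-0.16). Foxp1 (-1.84) and Klf2 (-0.16) also had the lowest and the highest median in HP1α WT cells, with Lef1 (-1.5) and Satb1 (-1.46), and Foxo1 (-0.86) and Tcf7 (-0.82), between them.

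Shares also varied with position. Of the 11 peaks that overlapped a TSS of the 6 genes, 4 closed in HP1γ WT cells and 0 opened, with a median of -0.76. Of the 157 peaks in introns, 140 (89.2%) closed, with a median of -2.16. Over all peaks, taken by the TSS and introns of any coding gene, the share that closed was also the smaller at a TSS, with 7.61% against 26.4% in introns. Upstream of the genes 55 of 91 closed, downstream 26 of 40, and in coding exons 14 of 16. Over all peaks 25.3% of those between genes and 19.4% of those at coding exons closed. Distance from the TSS made less difference: 70.9% closed within 10 kb, 75.6% at 10 to 50 kb, 82.6% at 50 to 100 kb and 69.0% farther out. The shares of all peaks at these distances were not counted, so nothing particular to the 6 genes can be read from them. In HP1α WT cells 36.4% of TSS peaks and 75.2% of intron peaks closed, against 6.74% and 20.5% over all peaks.

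Tcf7 (chr11:52143107-52174619, minus strand) has 6 peaks over its body, of which the promoter peak, chr11:52151461-52175900, is 24440 bp wide and covers most of the gene. That peak had 363, 373 and 393 CPM in HP1γ WT naive libraries and 304, 374 and 357 in Tconv, so that the conditions overlapped, with a log2 fold change of -0.06 ± 0.10 (SE) and an adjusted p of 0.616 (edgeR). In HP1α WT cells it was -0.60 ± 0.12 with an adjusted p of 0.000425, under the fold required for a call. The upstream region held peaks that moved both ways. A peak 26.5 kb upstream (chr11:52199721-52202550) had 40.4, 46.1 and 43.7 CPM in naive cells and 11.2, 9.65 and 8.99 in Tconv, a log2 fold change of -2.05 ± 0.14 and an adjusted p of 2.56e-10 (edgeR). Closer in, 10.7 kb upstream (chr11:52184491-52186150), a peak had 12.1, 11 and 11.7 CPM in naive cells and 49.3, 55.1 and 52.6 in Tconv, an increase of 2.24 ± 0.15 with an adjusted p of 2.99e-10. The groups were apart at both peaks.

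Lef1 (chr3:130903919-131018005, plus strand) had a promoter peak that was not called in WT or KO cells of either line. It had 150, 150 and 156 CPM in HP1γ WT naive cells and 135, 133 and 130 in Tconv, which did not overlap, and the log2 fold change of -0.12 ± 0.08 in the HP1γ fit did not pass (adjusted p 0.164, edgeR). The same peak was lower by the test, though by less than the fold needed for a call, in HP1α WT (-0.6 ± 0.15, adjusted p 0.00234), HP1α KO (-0.37 ± 0.14, 0.0307) and HP1γ KO cells (-0.44 ± 0.08, 0.000103, edgeR). The exonic peak 78.2 kb into the gene, chr3:130983791-130985500, went from 34.4, 34.6 and 34.7 CPM to 2.09, 2.26 and 1.60, a log2 fold change of -4.05 ± 0.19. In HP1α WT cells it changed by -3.33 ± 0.26. A weak peak 97.9 kb upstream opened, with 0.757, 0.366 and 0.574 CPM in naive cells and 2.00, 2.66 and 2.18 in Tconv (2.08 ± 0.32).

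Satb1 (chr17:52043114-52140622, minus strand) was the gene whose strongest promoter peak was called lower. It had 209, 206 and 201 CPM in naive cells and 105, 101 and 84.4 in Tconv, a log2 fold change of -1.02 ± 0.11 (adjusted p 7.28e-08, edgeR). The call sat at the fold threshold and was lost without HP1γ WT Tconv 3, with -0.95. Far upstream, 345 kb from the TSS (chr17:52484481-52486790), a peak fell from 37.3, 38.3 and 37.5 CPM to 1.48, 2.28 and 2.4 (-4.16 ± 0.20). A neighbour 323 kb upstream (chr17:52463361-52463980) rose from 0.742, 0.651 and 0.904 to 6.93, 6.70 and 3.74 (2.99 ± 0.27), with Tconv 3 the lowest of the Tconv libraries and still above all naive ones.

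Klf2 (chr8:73072726-73075502, plus strand) has a single peak over its short body and 10 more outside it. Those named here besides the promoter peak lie in the neighbouring gene Eps15l1, so they may belong to either. The promoter peak had 241, 230 and 240 CPM in naive cells and 170, 171 and 164 in Tconv, apart but under the fold required, with -0.43 ± 0.08 (adjusted p 8.19e-05, edgeR). Inside Eps15l1, 51.2 kb from the Klf2 TSS, a faint peak rose from 0.108, 0.109 and 0.0977 CPM to 1.10, 0.949 and 1.02 (3.33 ± 0.35). The 1 named there that fell, 27.7 kb away, had 0.819, 0.746 and 0.879 in naive cells and 0.393, 0.310 and 0.400 in Tconv (-1.08 ± 0.29), and lost its call without HP1γ WT Tconv 2 (-0.97).

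Of the forkhead genes, Foxo1 (chr3:52175757-52260642, plus strand) had a promoter peak with 175, 176 and 180 CPM in naive cells against 151, 144 and 131 in Tconv (-0.25 ± 0.09, adjusted p 0.0141, edgeR), a fall smaller than the fold needed for a call. There it had -0.45 ± 0.13 in HP1α WT (adjusted p 0.00498), -0.25 ± 0.12 in HP1α KO (0.0844) and -0.4 ± 0.09 in HP1γ KO cells (0.000819, edgeR). A peak 370.5 kb downstream (chr3:52546001-52546600) fell from 9.33, 9.06 and 9.41 CPM to 0.550, 0.420 and 0.581 (-4.10 ± 0.23), and another at 230.7 kb rose from 5.05, 3.68 and 4.32 to 12.1, 12.1 and 14.1 (1.62 ± 0.24).

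Foxp1 (chr6:98902299-99499685, minus strand) is the longest of the 6 genes, with 87 of its 96 peaks in introns and 5 at a TSS. Its strongest TSS peak had 120, 117 and 123 CPM in naive cells and 75.5, 70.1 and 63.8 in Tconv (-0.72 ± 0.12, adjusted p 4.04e-05, edgeR). An intronic peak, chr6:99147911-99150430, went from 54.4, 53.5 and 57.6 CPM to 2.83, 2.72 and 2.34, a change of -4.32 ± 0.19. In HP1α WT cells the same peak had 61.8, 37.2 and 37.8 CPM in naive cells and 2.38, 7.16 and 10.9 in Tconv (-3.29 ± 0.40), where Tconv 3, the shallowest, was the highest. The lone Foxp1 peak that opened was weak, from 0.603, 0.543 and 0.574 CPM to 1.51, 0.858 and 1.08 (1.09 ± 0.39, adjusted p 0.0177), and was lost without HP1γ WT Tconv 1 (0.82).

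A list of 22 other genes of naive or quiescent T cells, which holds Ccr7, S1pr1 and Il7r besides such genes as Bach2 and Ets1, had 652 peaks. In HP1γ WT cells 305 of them (46.8%, against 22% of all peaks) closed and 77 opened (11.8%, against 24.5%), with a median of -0.83. At 22 effector genes, such as Prdm1, Tbx21 and Ifng, the direction was the other way, with 325 of 507 peaks (64.1%) open and 63 closed (12.4%), with a median of 2.07. Among genes known as targets of KLF2 or FOXO1, Ccr7, a chemokine receptor of lymph node entry, closed at 14 of 19 peaks. S1pr1, which directs exit from lymphoid tissue, closed at 12 of 30. Il7r, a receptor of survival signals, closed at 3 of 20 and opened at 2, with a median of -0.14, a share of closed peaks under the 22% of all peaks.

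The second set of comparisons asked what the loss of either HP1 protein changed at the 6 genes. In naive cells no peak of the 331 was called in either line by edgeR or DESeq2. For HP1α, 0 had an unadjusted p under 0.05, against 1.17% of all peaks, and 0.00559% of all peaks were called (0.0042% higher and 0.0014% lower). For HP1γ, 21 did (6.34%, against 8.98% of all peaks), and 0.14% of all peaks were called (0.133% higher and 0.00699% lower) by edgeR and 3.27% by DESeq2. The replicate numbers paired the HP1α naive libraries, and the count stayed 0 with that block. In HP1γ naive cells all 3 KO libraries lay below all 3 WT libraries at 62 peaks (18.7%, against 14% of all peaks) and above them at 19 (5.74%, against 14.1%). Satb1 went the other way, with 13 of its 82 peaks above and 4 below. The Klf2 promoter was among the lower ones, with 241, 230 and 240 CPM in WT and 223, 172 and 193 in KO (-0.25 ± 0.08, adjusted p 0.287, edgeR).

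In Tconv without Treg, HP1α KO and WT differed at 0 of the 331 peaks by edgeR and by DESeq2, with 11 at an unadjusted p under 0.05 (3.32%, against 4.82% of all peaks) and 0.021% of all peaks called (0.00839% higher and 0.0126% lower). For HP1γ 1 peak was called, against 3.35% of all peaks (1.69% higher and 1.66% lower). It lay 133.9 kb upstream of Lef1 (chr3:130769651-130770310) and had 3.02, 3.39 and 2.88 CPM in WT and 1.59, 1.86 and 1.22 in KO, without overlap (-1.04 ± 0.23, adjusted p 0.0132, edgeR). The call was lost without HP1γ WT Tconv 2 (-0.98) or KO Tconv 3 (-0.86) and when only these groups were fitted, and leaving out single libraries gave 0 to 8 called peaks. The 4 deciding libraries were WT Tconv 2 (0 peaks without it), WT Tconv 3 (8), KO Tconv 1 (5) and KO Tconv 3 (0).

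With Treg, the HP1γ KO differed from its WT at these genes and nearly always downwards. Of the 331 peaks 46 were lower in KO and 4 higher, where 5.38% and 6.48% of all peaks were. The median log2 fold change was -0.69 over the 331 peaks and -0.02 over all peaks. Libraries with the same number deviated together here, and with the replicate number as a block 81 peaks were lower and 5 higher, where 7.98% and 7.46% of all peaks were. All 3 KO libraries lay below all 3 WT libraries at 119 of the 331 peaks (36%), against 16.4% of all peaks, and above them at 13 (3.93%), against 15.3%. The count depended on single libraries: 7 peaks were called without KO TconvTreg 1, 18 without WT TconvTreg 2, 28 without WT TconvTreg 3 and 85 without WT TconvTreg 1. Fitting only these groups left 15.

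By gene, 16 of 96 Foxp1 peaks were lower and 2 higher in HP1γ KO TconvTreg, 12 of 82 Satb1 peaks were lower and 1 higher, and 10 of 52 Lef1 peaks were lower and 0 higher. Foxo1 had 6 lower and 1 higher of 67, Tcf7 2 lower of 23, and Klf2 0 of 11. Below 0 lay the log2 fold changes of 49 of 52 Lef1 peaks, 21 of 23 Tcf7 peaks, 71 of 82 Satb1 peaks, 79 of 96 Foxp1 peaks, 56 of 67 Foxo1 peaks and 8 of 11 Klf2 peaks. The medians were -0.84 at Satb1, -0.77 at Foxp1, -0.73 at Lef1, -0.53 at Tcf7, -0.51 at Foxo1 and -0.38 at Klf2. At promoters, 1 of the 11 TSS peaks was lower, with a median of 0.02, while 24 of 157 intronic peaks were (median -0.77) and 4 of 16 exonic ones. Over all peaks 0.704% of those at a coding TSS, 6.55% of intronic ones and 5.41% of those at coding exons were lower. Of the 46 lower peaks, 41 (89.1%) were among those that closed on activation of HP1α WT cells, a comparison without a shared library, and they made up 19.2% of those. Of all 3847 peaks lower in HP1γ KO TconvTreg, 26.5% had closed there, which was 8.14% of the peaks that closed. In that HP1α WT comparison 64.4% of the 331 peaks and 17.5% of all peaks had closed. Lower in HP1γ KO TconvTreg were 13.9% of the 331 and 5.38% of all peaks.

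**Figure D3:**
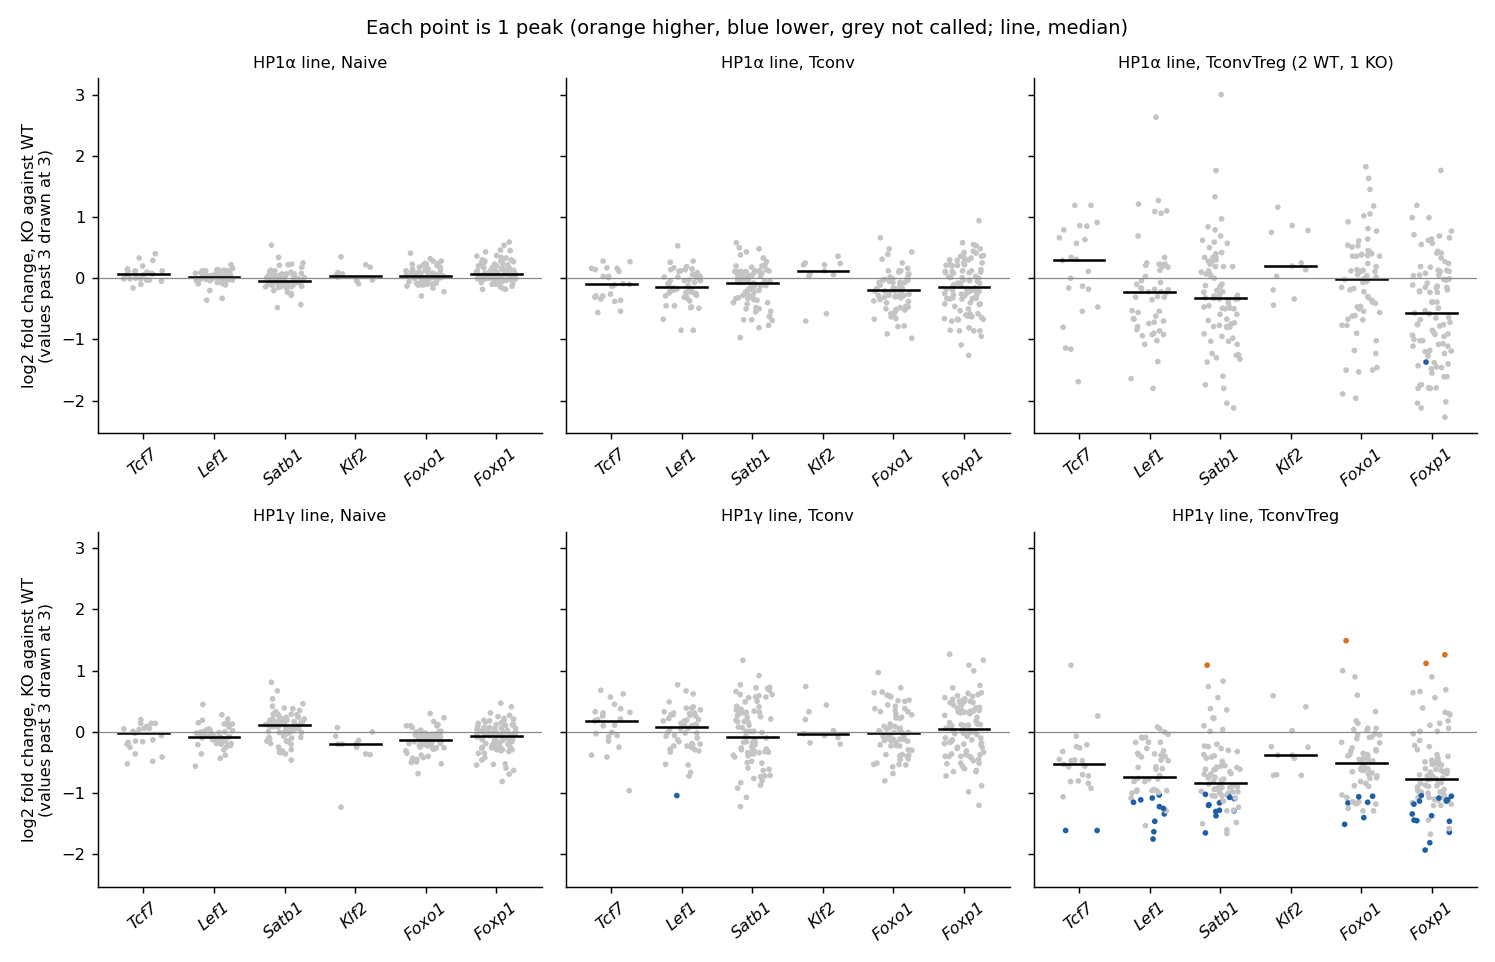
Log2 fold change of KO against WT on the vertical axis for each of the 331 peaks, by gene on the horizontal axis, in the 3 conditions of both lines. Orange peaks were called higher, blue ones lower, grey ones not called, and lines are medians. In the HP1γ line with Treg 46 peaks were lower and 4 higher, and in naive cells 0 were called in either line.

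Named peaks show the size of these differences. Lef1 94.3 kb upstream (chr3:130809471-130809790) had 1.48, 1.57 and 2.00 CPM in HP1γ WT TconvTreg and 0.477, 0.597 and 0.718 in KO (-1.46 ± 0.27, adjusted p 0.0013, edgeR). Foxo1 353.8 kb downstream (chr3:52529351-52529850) had 1.96, 1.52 and 2.19 in WT and 0.647, 0.702 and 0.745 in KO (-1.40 ± 0.29, adjusted p 0.00336). At both, every KO library lay under every WT library, and neither call was lost in any alternative tried. Satb1 had a lower peak over a coding exon, 3.7 kb from a TSS (chr17:52111371-52115220), with 11.8, 13 and 15 CPM in WT and 3.27, 6.44 and 6.39 in KO (-1.30 ± 0.29, adjusted p 0.00528). Foxp1 had 1 at a TSS, chr6:99408831-99413290, with 23.9, 30.7 and 22.4 in WT and 7.56, 14.5 and 12.3 in KO (-1.18 ± 0.24, adjusted p 0.00257). KO TconvTreg 1 was the lowest library at both, and without it the changes were -0.99 and -0.91, under the fold required. Tcf7 21.8 kb upstream (chr11:52195851-52196920) had 5.30, 13.5 and 7.95 in WT and 1.46, 3.86 and 3.51 in KO (-1.61 ± 0.36, adjusted p 0.00505), and this call rested on WT TconvTreg 2 (-1.11 without it, no longer called). In HP1γ Tconv, without Treg, this Tcf7 peak had 10, 14.3 and 8.61 in WT and 7.29, 5 and 4.61 in KO. The Foxp1 peak had 38.3, 28.1 and 28.5 in WT and 24.3, 14.2 and 18.1 in KO. KO thus lay below WT at both without Treg as well, though neither was called. At the Lef1, Foxo1 and Satb1 peaks the genotypes overlapped there.

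The 4 higher peaks were 2 at Foxp1, 1 at Foxo1 and 1 at Satb1. Foxo1 201.9 kb downstream (chr3:52377401-52377920) had 1.29, 1.74 and 1.76 CPM in WT and 6.13, 2.95 and 3.65 in KO, apart, with 1.49 ± 0.36 (adjusted p 0.00765, edgeR) and 1.08 without KO TconvTreg 1, where it was not called. Satb1 243.4 kb upstream had 1.23, 1.62 and 1.90 in WT and 3.05, 1.95 and 5.16 in KO (1.09 ± 0.33, adjusted p 0.0259) and was lost without WT TconvTreg 1 or 2 and without KO TconvTreg 1 or 3. The Klf2 peak of smallest p, 24.8 kb away in Eps15l1, was not called, with 19.8, 18.9 and 14.6 in WT and 32.7, 24.7 and 24.0 in KO (0.59 ± 0.15, adjusted p 0.0122).

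Levels of other genes also differed between these KO and WT libraries, some of them in the conditions without Treg as well. The B cell list, with 5 of 6 genes measured, summed to 84.6 to 122 CPM in HP1γ KO TconvTreg and 54.2 to 65.4 in WT. Within it Pax5 was at 26.7 to 34.8 against 11.6 to 19.1 and Blk at 23.3 to 54.1 against 9.36 to 13.6, while Cd79a was at 3.76 to 4.86 against 5.43 to 6.23. The Treg list, of 2 genes, summed to 265 to 372 against 138 to 189, all but a little of it from Ikzf2, and Foxp3 itself was at 2.07 to 2.4 against 2.85 to 3. Cd4 was at 629 to 798 against 144 to 190, a gene whose control sequence is part of the Cd4-cre transgene that only the KO carries. It was also at 827 to 853 against 171 to 188 in naive cells and at 725 to 867 against 194 to 205 in Tconv, and the Treg list summed to 135 to 151 against 89.7 to 104 and to 163 to 258 against 97.8 to 155. The B cell list was at 70.7 to 76.1 against 65.9 to 69.1 in naive cells and at 50.7 to 68.6 against 47.4 to 60.6 in Tconv. Myeloid genes summed to 106 to 143 against 103 to 118, NK genes to 517 to 640 against 487 to 551 and CD8 genes to 5.68 to 8.68 against 6.63 to 10.9. The part of these differences in the result at the 6 genes was not tested.

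In the HP1α line with Treg, 1 of the 331 peaks was called, lower in KO, where 1.63% of all peaks were called (0.218% higher and 1.42% lower). It was an intronic Foxp1 peak 6.1 kb from a TSS, chr6:99027051-99028560, which is also 1 of the 2 Foxp1 peaks that were higher in HP1γ KO. HP1α WT TconvTreg had 22.6 and 15 CPM and KO had 8.23 (-1.37 ± 0.31, adjusted p 0.0335, edgeR). With 1 KO library, the error and p assume that it varies like the libraries of the other groups. The left-out libraries had 9.49 in WT and 7.74 and 7.60 in KO, so the genotypes were apart with them too, but at -1.14 and without a call. The call was also lost without WT TconvTreg 1 (-0.79) or WT TconvTreg 2 (-1.35). In HP1γ the same peak had 12, 7.94 and 6.43 in WT and 26.5, 15.1 and 18.5 in KO (1.12 ± 0.21, adjusted p 0.00179), lost at the fold threshold without KO TconvTreg 1 (0.86), WT TconvTreg 2 (0.99) or WT TconvTreg 3 (1).

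**Figure D4:**
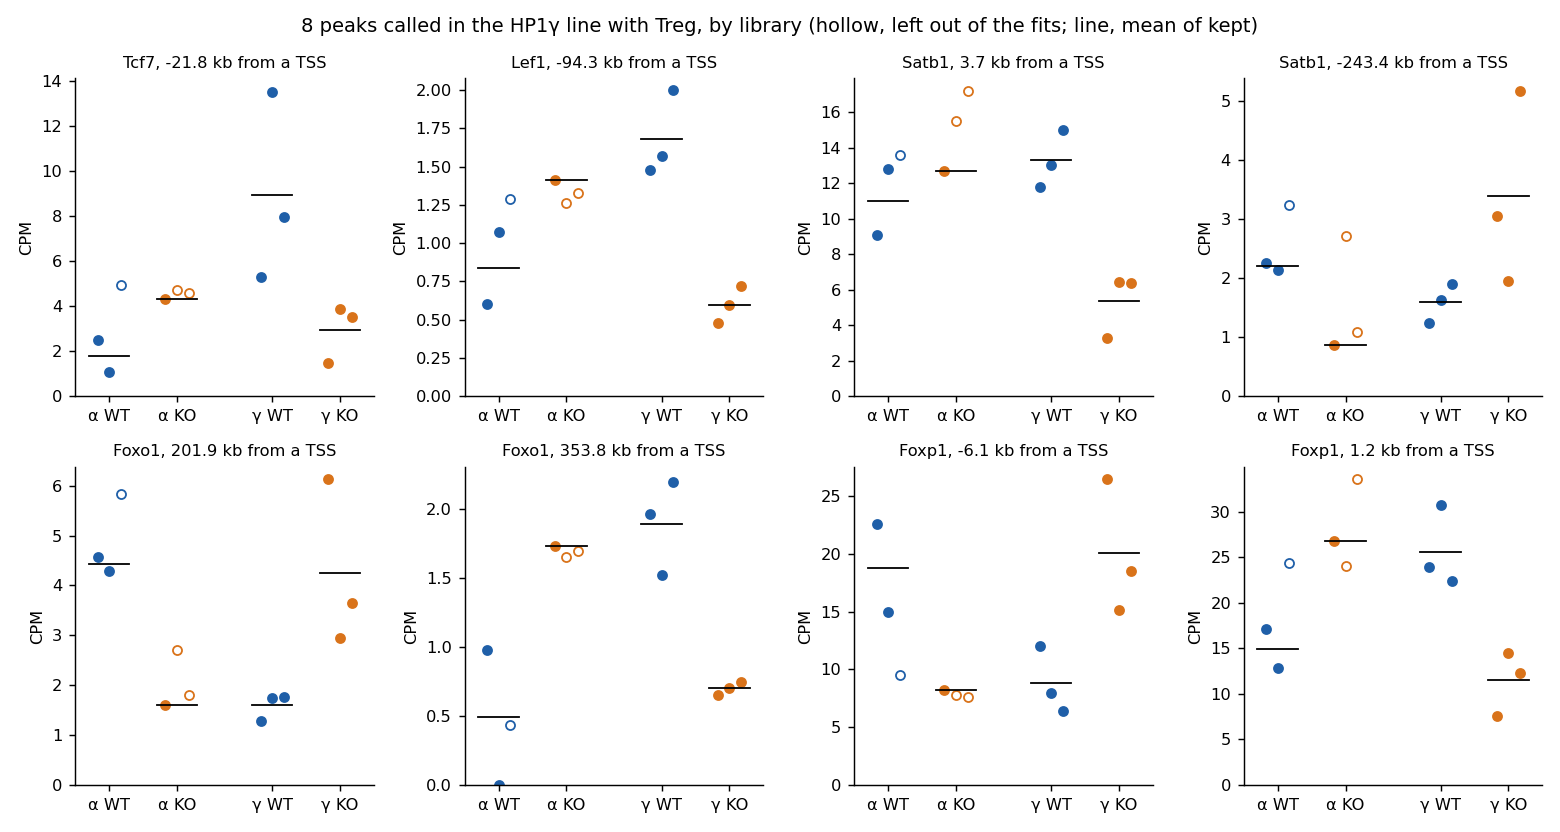
CPM on the vertical axis at 8 peaks called in HP1γ KO against WT with Treg, for each TconvTreg library of the HP1α and HP1γ lines on the horizontal axis. Blue points are WT, orange ones KO, hollow ones the 3 libraries left out of the fits, and lines are means of the kept libraries. At the Foxp1 peak 6.1 kb from a TSS the HP1γ KO libraries, at 15.1 to 26.5, lie above their WT, while the HP1α KO libraries, at 7.60 to 8.23, lie below theirs.

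Whether the KO effect with Treg differed between the lines was tested in a fit of all 33 kept libraries, in which the HP1α KO side with Treg is again 1 library whose spread is taken from the other groups. The difference was called at 25 of the 331 peaks, 19 where HP1γ KO was the lower and 6 where it was the higher, against 4.03% and 7.07% of all peaks. Of the 19, Tcf7 and Foxp1 had 5 each, Foxo1 4, Klf2 3 and Lef1 and Satb1 1 each, and of the 6, Foxp1 had 4 and Foxo1 2. At Foxp1 6.1 kb from the TSS the difference was 2.42 ± 0.45 (adjusted p 0.000658, edgeR). At Tcf7 10.7 kb upstream, the peak that opened on activation, it was -1.73 ± 0.40 (adjusted p 0.00488), with 14.9 and 12.8 CPM in HP1α WT, 33.4 in HP1α KO, 41.7, 48.3 and 27.6 in HP1γ WT and 26.3, 31.9 and 29.4 in HP1γ KO. The left-out HP1α libraries had 9.92 in WT and 16.2 and 20.7 in KO, all KO values above all WT values but well under the kept 33.4, and the HP1α change went from 1.19 ± 0.34 to 1.03 ± 0.36 with them. The Klf2 locus differed at 33.6 kb (-1.11 ± 0.27, adjusted p 0.00839), with 72.8 and 47.0 CPM in HP1α WT, 115 in HP1α KO, 114, 149 and 90.3 in HP1γ WT and 92.7, 115 and 89.1 in HP1γ KO. The left-out HP1α libraries had 64.9 in WT and 58.3 and 71.9 in KO, within the range of the kept WT libraries, and with all 18 libraries the HP1α change went from 0.78 to 0.43. Markers differed between the lines too. In HP1α TconvTreg, with all libraries, Ikzf2 was at 176 to 178 CPM in KO and 219 to 382 in WT, and Foxp3 at 2.8 to 4.82 and 1.6 to 2.8. In HP1γ TconvTreg the KO was the higher at Ikzf2 and the lower at Foxp3. The part of these markers in the calls of the difference was not tested. All of these calls rested on HP1α WT TconvTreg 1, without which 0 were made, while 40 were made without HP1γ KO TconvTreg 2 and 16 without HP1γ WT TconvTreg 2.

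The last comparisons asked what Treg in the host changed. In HP1γ WT cells 0 of the 331 peaks were called by edgeR, with 0.137% of all peaks called (0.0671% higher and 0.0699% lower). An unadjusted p under 0.05 was found at 82 of the 331 (24.8%) and at 20.3% of all peaks. DESeq2 called 17, of which 16 were higher with Treg and 1 lower, where it called 2.94% of all peaks higher and 0.316% lower. The median was 0.36 over the 331 peaks and 0.03 over all peaks, and all TconvTreg libraries lay above all Tconv libraries at 75 peaks (22.7%, against 14.5% of all peaks) and below them at 9 (2.72%, against 8.25%). Foxp1 had a median of 0.64, Tcf7 0.44, Lef1 0.36, Foxo1 0.27, Satb1 0.21 and Klf2 -0.16. In HP1γ KO cells 8 peaks were higher with Treg and 9 lower, against 6.1% and 2.06% of all peaks (8.15% in all), with a median of -0.28. Of the 8, 5 were in Foxp1 introns, among them chr6:99147911-99150430, which had closed on activation, with 2.46, 4.27 and 1.72 CPM in Tconv and 9.60, 5.57 and 6.09 with Treg (1.47 ± 0.27, adjusted p 0.00167, edgeR). Without KO TconvTreg 1 there were 5 calls in all, and without KO TconvTreg 2 there were 30. The summed Treg and B cell lists of HP1γ KO libraries, given above, were also higher with Treg than without. Their part in this result was not tested.

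The interaction of genotype and Treg in the HP1γ line, which tests whether the KO effect changed with Treg, was called at 0 of the 331 peaks by edgeR, with 0.0014% of all peaks called. At an unadjusted p under 0.05 stood 66 of the 331 (19.9%) and 12.8% of all peaks. Its median was -0.64 over the 331 peaks and -0.04 over all peaks. DESeq2 called 9, all lower, where it called 0.899% of all peaks lower, and edgeR with the replicate block called 6, all lower, against 0.564%. Whether the KO effect differed with and without Treg at single peaks thus depended on the fit. In the HP1α line it was called at 0 by both tools, with 13 at an unadjusted p under 0.05 (3.93%, against 10.3% of all peaks) and 0.0461% of all peaks called.

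In HP1α WT cells 7 peaks were higher with Treg and 5 lower, against 4.92% and 1.84% of all peaks (6.77% in all). All 7 higher ones were in introns of Foxp1, the strongest in adjusted p being the peak 6.1 kb from a TSS, with 5.68, 9.33 and 7.39 CPM in Tconv and 22.6 and 15 with Treg (1.64 ± 0.29, adjusted p 0.00211, edgeR). The left-out library with Treg had 9.49 there, close to the highest Tconv library. Among the lower ones was Tcf7 21.8 kb upstream, with 11.7, 8.94 and 10.7 CPM in Tconv and 2.48 and 1.07 with Treg (-2.21 ± 0.48, adjusted p 0.0087), where the left-out library had 4.96. Markers moved with this comparison too. In the same fit the Treg list was higher at 12 of 31 peaks (38.7%, median 1.44), NK genes at 7 of 43 (16.3%, median 1), B cell genes at 3 of 22 (13.6%) and myeloid genes at 3 of 18 (and lower at 1), while the T cell list was lower at 3 of 26 and CD8 and erythroid genes were called at 0 of 7 and 0 of 2. Over all 3 libraries a group, the Treg list summed to 122 to 153 CPM in Tconv and 220 to 385 with Treg, with Foxp3 at 2.32 to 5.97 and 1.6 to 2.8, B cell genes to 50.6 to 65.5 and 90.3 to 99.2, NK genes to 421 to 530 and 328 to 622, and the T cell list to 783 to 990 and 490 to 671. Their part in the result was not tested. The 12 calls fell to 0 without WT TconvTreg 1, to 4 without WT Tconv 1 and to 6 without WT TconvTreg 2. In HP1α KO cells, where the Treg condition kept 1 library, 0 of the 331 were called by edgeR and by DESeq2, with 28 at an unadjusted p under 0.05 (8.46%, against 8.54% of all peaks) and 0.548% of all peaks called (0.264% higher and 0.284% lower).

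At the 22 other naive genes 67 of 652 peaks (10.3%) were lower and 19 (2.91%) higher in HP1γ KO TconvTreg, where 5.38% and 6.48% of all peaks were, with a median of -0.37. At the 22 effector genes 39 of 507 (7.69%) were lower and 63 (12.4%) higher, both above the shares of all peaks (median 0.06). Of the targets, Il7r had 8 of 20 peaks lower (median -1.06), while S1pr1 with 2 of 30 and Ccr7 with 0 of 19 were near or under the share of all peaks.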

How the data were processed

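ATAC-seq was measured in 36 libraries. The authors trimmed reads with Trim Galore 0.6.7, aligned them to GRCm39 with BWA-MEM 2, removed duplicates, called peaks per sample with HMMRATAC, merged them, and deposited the whole-number count of reads per merged peak from featureCounts 2.0.3, not normalized. A read may count to overlapping peaks, and 3 intervals without width were dropped. Member peaks and gene lists were chosen with earlier results of these data known. The peaks named for each gene were the strongest TSS peak, the called peaks of smallest p in each direction for HP1γ WT activation and for HP1γ KO against WT with Treg (the smallest p where none was called), that of smallest p for HP1α KO against WT with Treg, and any called where a KO comparison without Treg had 5 or fewer. Other peaks named from the comparisons with Treg were chosen after their values were seen.

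Printed CPM, summed levels and marker levels used TMM factors over all 36 libraries. Counts were scaled with TMM within each fit and tested with edgeR 4.0.16 in R 4.3.3 (quasi-likelihood, Benjamini-Hochberg adjustment over all peaks), in 15 HP1α libraries, 18 HP1γ libraries and all 33 together. The groups came from the labels. Nothing states that libraries came from separate animals, so p-values measure the spread between these samples. The code was tested on simulated data. DESeq2 1.42.0, other scalings, filters, covariates, a replicate block and leaving out each library were tried as alternatives. Same-numbered libraries deviated together (every r over 0.1) in HP1α KO against WT naive cells (r 0.25 to 0.50), HP1γ KO against WT with Treg (0.15 to 0.32) and HP1γ WT TconvTreg against Tconv (0.20 to 0.29). Some genes of the lists are not reported here.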

Additional observations from a re-analysis of the deposited data

Results flagged for a closer look

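The effect of the KO with Treg differed between the HP1γ and HP1α lines at 25 of the 331 peaks (7.55%), against 11.1% of all peaks, by a test of the difference itself in the fit of all kept libraries (edgeR, adjusted p under 0.05 and absolute log2 difference over 1). At Tcf7 the log2 difference, HP1γ minus HP1α, was -1.73 at 10.7 kb upstream, -2.61 at 21.8 kb, -1.29 at 26.5 kb and -1.16 at 30.6 kb. It was -2.64 at Lef1 94.3 kb upstream, -1.79 at Satb1 3.7 kb from a TSS and -1.11 at Klf2 33.6 kb away. Foxo1 differed by 2.91 at 201.9 kb downstream, by -1.79 at 304.2 kb and by -2.50 at 353.8 kb, and Foxp1 by 2.42 at 6.1 kb and by -1.97 at 1.2 kb from a TSS. The HP1α KO side of this test is 1 library, assumed to vary like those of the other groups. At Tcf7 30.6 kb that library had 62.3 CPM against 33.7 and 38 in HP1α WT, while the 2 KO libraries left out had 29.5 and 33.8 and the WT library left out had 25. At Foxo1 304.2 kb it had 23.1 CPM against 11.9 and 6.42 in WT, while the KO libraries left out had 11.8 and 12.1 and the WT library 6.9. At Foxp1 1.2 kb it had 26.8 against 17.1 and 12.8, and the libraries left out had 24 and 33.6 in KO and 24.4 in WT. At Satb1 3.7 kb it had 12.7 against 9.09 and 12.8, and those left out had 15.5 and 17.2 in KO and 13.6 in WT. At each of these 4 peaks the HP1α genotypes overlapped once the libraries left out were counted. So they did at Tcf7 21.8 kb, at Lef1 94.3 kb and at Klf2 33.6 kb. At Tcf7 21.8 kb the HP1α WT library left out had 4.96 CPM, above the KO libraries at 4.32, 4.74 and 4.58. HP1α WT TconvTreg 2 held 0 reads at Foxo1 353.8 kb, 2 at Tcf7 21.8 kb and 2 at Lef1 94.3 kb, and 8 at Foxo1 201.9 kb. Without HP1α WT TconvTreg 1 the count was 0, and the cause of these differences was not tested.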

How the results depend on the processing

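No named peak that was called reversed its direction in the alternatives tried. Medians without calls could: with all 18 HP1α libraries that of Satb1 in HP1α KO TconvTreg against Tconv went from -0.23 to 0.23. The KO effect of HP1γ with Treg, 50 called peaks, gave 86 with the replicate block, 15 with only the groups compared and 7 to 85 when single libraries were left out, and stayed within 1.5 times of 50 under DESeq2 (68), library size alone (59), a depth covariate (36) and loess offsets (45). That of HP1α with Treg, 1 peak, gave 0 with all 18 libraries, a depth covariate, only the groups compared, the legacy edgeR method or a library left out, and 3 with DESeq2 or library size alone. The legacy method was chosen after seeing the data.

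HP1α WT activation gave 125 to 230 peaks with a library left out. HP1α WT TconvTreg against Tconv (12) gave 25 with DESeq2, 22 with the legacy method, 7 with a depth covariate, 6 with the replicate block and 0 to 15 with a library left out. HP1α KO TconvTreg against Tconv (0) gave 3 with all 18 libraries, 1 with library size alone or a depth covariate, and 0 to 1 with a library left out. HP1γ naive cells (0) gave 1 with a depth covariate, only the groups compared or the replicate block. HP1γ Tconv (1) gave 2 with DESeq2, 3 with the replicate block, 4 with loess offsets, 0 with library size alone, the legacy method or only the groups compared, and 0 to 8 with a library left out. HP1γ WT TconvTreg against Tconv (0) gave 17 with DESeq2, 6 with the legacy method, 3 with loess offsets, 1 with library size alone and 0 to 3 with a library left out. HP1γ KO TconvTreg against Tconv (17) gave 3 with only the groups compared, 10 with the replicate block and 5 to 30 with a library left out. The HP1γ interactions (0) gave 1 with DESeq2 for activation, and 9 with DESeq2 and 6 with the replicate block for Treg, with 0 to 1 with a library left out in each. The difference between lines (25) gave 49 with DESeq2, 44 with the legacy method and 0 to 40 with a library left out. With library size alone the summed Lef1 and Foxp1 levels differed by -0.32 and -0.31 (log2) between HP1γ KO and WT with Treg. Searched over whole peaks, 29.6% of peaks that closed held the AP-1 letters and 55.5% the TCF/LEF letters, since more bases were searched. The other causes were not tested.

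With the block set within a condition or a genotype, no paired analysis was possible because fewer than 2 same-numbered pairs were kept for HP1α KO against WT with Treg, HP1α KO TconvTreg against Tconv and the HP1α interaction with Treg, nor for the difference between lines. A block shared across conditions was not run. Depth limits the HP1α line most, with 1.49 M reads in HP1α WT TconvTreg 2.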
